A study of Mus musculus with 10 samples.

Results

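The amino acid response is the gene program that cells switch on when amino acids run short or the endoplasmic reticulum is under strain. It was followed here through 34 genes chosen by symbol: ATF4 and factors that act with or after it, enzymes of serine, glycine, proline, asparagine and cysteine synthesis, amino acid transporters with a receptor gene, and cytosolic aminoacyl-tRNA synthetases. The 34 symbols matched 35 of the 53697 gene entries of the files, because Ddit3 has 2 entries, and 29 of the 35 had enough reads to be among the 13916 genes tested. They were measured by bulk RNA-seq in microglia, the resident macrophages of the brain, sorted from untreated female mice. The Bhlhe40/41 DKO mice (Bhlhe40-/- Bhlhe41-/-) gave 5 libraries, DKO 1 to DKO 5, and since both genes are lost in all cells of these animals, effects of the loss in microglia and in other cells cannot be told apart. The WT mice, C57BL/6J or Rosa26Stop-YFP, gave 5 libraries, WT 1 to WT 5, and which library came from which of these lines is not stated. The mice were at least 2 and 6 months of age, also without an assignment to libraries. The labels call each library a biological replicate, but nothing says that a library is 1 mouse. The p-values rest on the spread between libraries, which may in part be technical.

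In mammals, a shortage of an amino acid leaves tRNA uncharged, which activates the kinase GCN2, while unfolded protein in the endoplasmic reticulum activates PERK. Both phosphorylate the translation factor eIF2, and general translation then slows while translation of the ATF4 mRNA increases, so that the activity of this transcription factor need not show in the level of its own RNA. ATF4 pairs with C/EBP proteins on composite elements near genes for amino acid synthesis, uptake and tRNA charging. BHLHE40 and BHLHE41 are repressors that bind E-boxes, among them CACGTG.

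Of the 10 libraries, the 5 DKO libraries held 22483284 to 26109349 and the 5 WT libraries 23382114 to 25871082 estimated counts. Levels are given in CPM, counts scaled by TMM to a common library size. Log2 fold changes, with their standard errors (SE), are DKO over WT from edgeR's quasi-likelihood test, and its p-values were adjusted over the 13916 tested genes (Benjamini-Hochberg, threshold 0.05). Over all these genes 862 passed (6.19%), 604 higher (4.34%) and 258 lower (1.85%) in DKO microglia, and the biological coefficient of variation was 28.0%. Bhlhe40 was at 0.177 ± 0.136 CPM in DKO and 0.601 ± 0.385 CPM in WT microglia (SD, n = 5 each), too few reads for the test. The RNA of Bhlhe41 was not lower, at 50.9 ± 8.45 CPM in DKO and 35.9 ± 6.67 CPM in WT microglia (SD, n = 5 each; log2 fold change of 0.50 at an adjusted p of 0.0707), and counts over a whole gene can include parts that a knockout allele keeps. Mitochondrial transcripts took 1.04% to 1.13% of counts in DKO 1, 2, 4 and 5 and 1.58% in DKO 3, against 1.75% in WT 1, 1.54% in WT 5 and 0.986% to 1.16% in WT 2, 3 and 4. Gm23935, a short noncoding gene, held 23.2% to 26.6% of the TPM of DKO libraries, against 20.3% in WT 3 and 2.85% to 6.6% in the other WT libraries. The 9 microglia markers used, among them Cx3cr1 and Tmem119, summed to 51900 to 64100 CPM in DKO and 56800 to 65300 CPM in WT libraries, and 1 of the 9, P2ry12, fell. Astrocyte markers summed to 158 to 210 CPM in DKO and 243 to 398 CPM in WT libraries. Nearly all of that sum was Slc1a3, which fell (152 to 206 CPM in DKO and 238 to 392 CPM in WT libraries), while the other 5 astrocyte markers tested did not pass and had log2 fold changes of both signs, from -1.39 (Aldh1l1) to 1.21 (Gfap). Border macrophage markers summed to 6.05 to 26.7 CPM in DKO and 4.62 to 15.7 CPM in WT libraries, most of it Mrc1, which did not pass (log2 fold change 0.43, adjusted p = 0.667) and in both genotypes was higher in libraries 4 and 5 (11 to 21.7 CPM) than in libraries 1 to 3 (3.78 to 5.51 CPM). Of the other 4, Pf4 was higher in DKO microglia (2.1 to 6.21 CPM in DKO and 0 to 0.376 CPM in WT libraries), Cbr2 was at 0 to 0.652 CPM in DKO and 0.17 to 0.613 CPM in WT libraries, and Lyve1 and Cd163 were at 0 in all libraries. The part of these differences in the results below was not tested.

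The sites through which ATF4 acts can be looked for in the promoters. A promoter here is the stretch from 250 bases before to 50 bases after a transcription start in RefSeq on GRCm38.p6, and 27 of the 34 symbols had at least 1 (30 promoters in all). The 8-base word TGATGNAA, the core of the composite element of C/EBP and ATF proteins, was searched on both strands. It stood in a promoter of 12 of the 27 genes (44.4%), against 1219 of all 27025 genes in the same table (4.51%). In these 12, the word was TGATGCAA in 9 genes (33.3% of the 27, against 1.03% of all genes) and TGATGAAA in 3 (11.1%, against 1.15%), with Aars holding both and Trib3 holding TGATGTAA. Since the genes were listed as ATF4 genes, these shares describe the list. CACGTG, the E-box, stood in 5 of the 27 (18.5%, Nupr1, Aldh18a1, Aars, Iars and Tars), against 8.09% of all genes. No TGATGNAA overlapped a CACGTG in these promoters. A match is a run of letters and not a measured binding site. The promoters below are those of Asns, with the highest fold change of the members, of Slc7a11, the member that fell, of Gars, the synthetase with the highest fold change, and of Phgdh, a gene that rose and has no match in this window. Each is written from 5′ to 3′ along its gene, with TGATGNAA or its reverse complement in capitals.
Asns (chr6:7693160-7693459, minus strand): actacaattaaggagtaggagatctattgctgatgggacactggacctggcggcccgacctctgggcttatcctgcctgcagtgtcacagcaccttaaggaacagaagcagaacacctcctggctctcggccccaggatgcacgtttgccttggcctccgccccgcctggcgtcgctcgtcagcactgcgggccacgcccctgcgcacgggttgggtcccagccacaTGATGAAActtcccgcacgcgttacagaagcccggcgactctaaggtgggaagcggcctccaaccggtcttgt
Slc7a11 (chr3:50443564-50443863, minus strand): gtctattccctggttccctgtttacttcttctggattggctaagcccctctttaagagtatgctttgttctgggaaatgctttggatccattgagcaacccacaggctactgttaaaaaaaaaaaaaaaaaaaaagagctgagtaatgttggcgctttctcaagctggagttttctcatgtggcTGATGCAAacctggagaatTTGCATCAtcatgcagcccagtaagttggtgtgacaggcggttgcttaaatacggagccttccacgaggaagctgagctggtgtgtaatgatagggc
Gars (chr6:55037751-55038050, plus strand): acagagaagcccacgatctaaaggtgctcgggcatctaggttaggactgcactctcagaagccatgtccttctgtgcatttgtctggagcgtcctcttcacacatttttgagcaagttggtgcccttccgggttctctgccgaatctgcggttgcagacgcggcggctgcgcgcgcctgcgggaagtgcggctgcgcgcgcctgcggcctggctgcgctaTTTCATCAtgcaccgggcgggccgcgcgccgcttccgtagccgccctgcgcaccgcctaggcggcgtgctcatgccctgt
Phgdh (chr3:98339920-98340219, minus strand): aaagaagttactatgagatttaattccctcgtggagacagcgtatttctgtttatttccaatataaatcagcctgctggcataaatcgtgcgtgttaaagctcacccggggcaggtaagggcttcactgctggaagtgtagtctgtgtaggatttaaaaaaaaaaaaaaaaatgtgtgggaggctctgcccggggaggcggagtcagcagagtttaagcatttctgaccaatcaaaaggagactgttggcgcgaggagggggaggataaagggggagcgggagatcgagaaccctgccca
The match began 23 bases before the start in Asns and 30 bases before it in Gars. Slc7a11 held it at 2 places, 66 and 47 bases before the start, once on each strand. Of the 6 called members with a promoter in the table, 2 (Asns and Slc7a11) held the word and 4 (Phgdh, Psat1, Mthfd2 and Cebpg) did not. The median log2 fold change was 0.34 both over the 10 tested members with the word and over the 13 without it.

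In DKO microglia 6 members rose, Asns, Psat1, Phgdh and Mthfd2 among the enzymes, Slc7a5 among the transporters and Cebpg among the regulators, and 1 fell, the transporter Slc7a11. These 7 are 24.1% of the 29 members tested, beside 6.19% of all genes. The members were chosen with earlier results of these data known, so this share describes the list. The median log2 fold change of the 29 was 0.28, beside -0.01 over all genes, with 24 above and 5 below 0. In sorted bulk samples, a change in the cells that make up the sort and a change of RNA within each cell cannot be told apart. At an unadjusted p under 0.05, 12 members were higher and 1 was lower, beside 13.3% and 10% of all genes. In 7 members every DKO library lay above every WT library and in 1 every DKO library lay below, which is the case for 4.34% and 3.28% of all genes. None of the 12 synthetases passed the test, while 4 of 8 synthesis enzymes, 1 of 6 regulators and 2 of 3 transporters did. DESeq2 called 8 members, with Aldh18a1 added, beside 11.7% of all genes, and limma voom called 8, with Gars added, beside 8.32%. Asns, Psat1 and Slc7a11 passed in all 24 alternative settings tried, including without each library in turn. Without WT 1 and WT 5 together, the WT libraries with more mitochondrial reads, these 3 were the only members called. That fit has fewer WT libraries, and its calls over all genes are not given here. On TPM, which Gm23935 lowers unequally, the median of the members was -0.09, and that of all genes shifted to between -0.35 and -0.26. There 10 of the 29 members were called, beside 34.6% of all genes, without Phgdh (0.14, adjusted p = 0.27 in limma with 1 added) and Mthfd2 (0.41, adjusted p = 0.137).

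**Figure D1:**
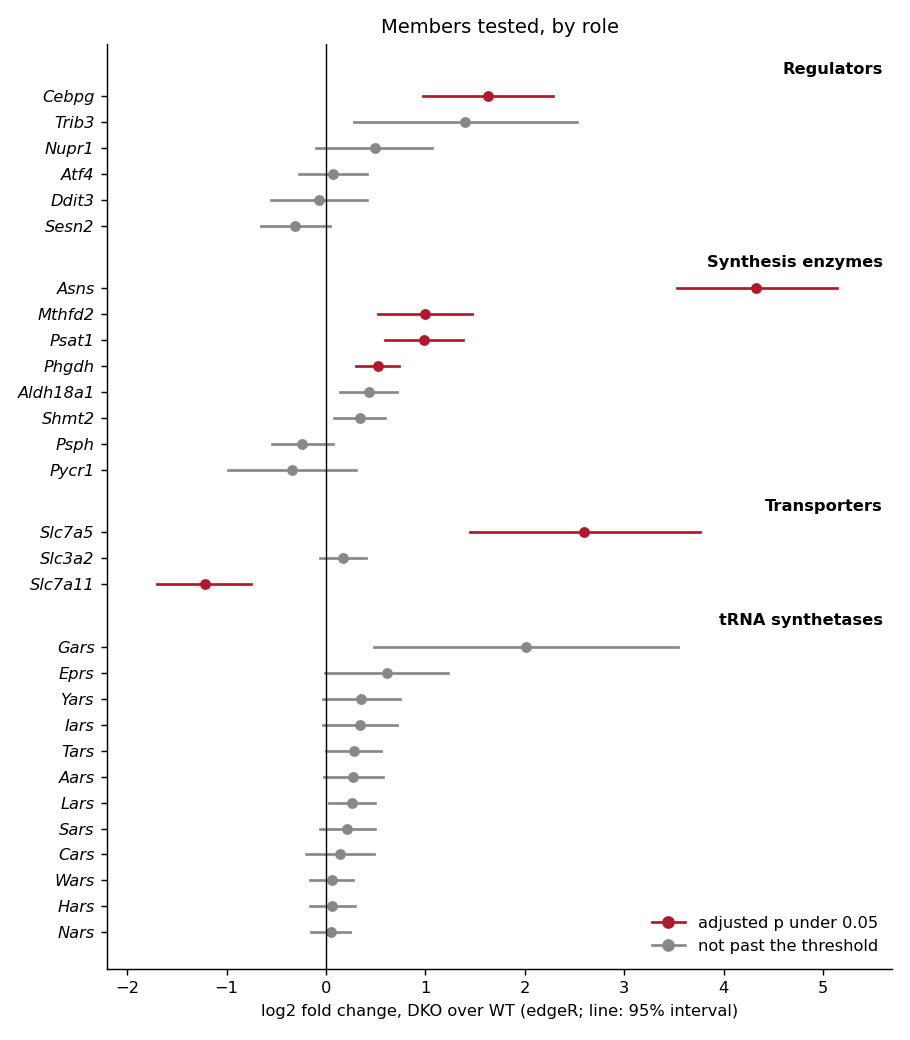
Log2 fold change of DKO over WT for the 29 members tested, by role, with lines for the 95% interval and red for an adjusted p under 0.05. Asns lies at 4.33, Slc7a11 at -1.22, and the 12 synthetases lie between 0.05 and 2.01, none past the threshold.

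Asns, asparagine synthetase, makes asparagine from aspartate with glutamine as the nitrogen donor. It lies on chromosome 6 from 7675169 to 7693254, minus strand, of GRCm38. Its level was 102, 43.6, 39.6, 52.8 and 53.0 CPM in DKO 1 to 5, against 3.68, 3.65, 3.75, 2.06 and 1.28 CPM in WT 1 to 5. The lowest DKO library thus stood above the highest WT library by a wide margin, and DKO 1 stood apart from the other DKO libraries. The log2 fold change was 4.33 (SE 0.37, adjusted p = 4.84e-05), a 20.2-fold rise and the 10th highest of all genes tested. Without DKO 1 it was 4.03. Behind these levels stood 923 to 2389 counts in DKO and 34 to 102 counts in WT libraries. The abundance-weighted transcript length of Asns was 1972 ± 41.6 bases in DKO and 1747 ± 390 bases in WT microglia (SD, n = 5 each; two-sided exact permutation test, p = 0.365), with the 2 low values, 1613 and 1117 bases, in WT 4 and WT 5. Per length, Asns was 12th of the 29 members in DKO microglia, at 32.6 ± 15.7 TPM, and 26th in WT microglia, at 2.31 ± 0.453 TPM (SD, n = 5 each).

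Bhlhe40 and Bhlhe41 lie on the same chromosome as Asns, as do Mthfd2 and Gars. The genes around Asns were looked at to see whether the change extended along the chromosome. The surroundings of Bhlhe40 and Bhlhe41 themselves were not looked at. Of 11 genes tested within 1 Mb of Asns, 0 passed with edgeR, with log2 fold changes from -0.41 to 1.53, a lowest adjusted p of 0.0969 and 3 genes at an unadjusted p under 0.05, which 23.3% of all genes had. DESeq2 called 1 of them and limma voom called 0. Within 2 Mb 13 genes were tested and 0 passed, again with 3 at an unadjusted p under 0.05.

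The serine pathway starts from a glycolytic intermediate and runs through Phgdh, Psat1 and Psph, and its product feeds the folate cycle through Shmt2 and Mthfd2. Phgdh, the first enzyme (chromosome 3, 98313170 to 98339990), was at 435, 339, 324, 424 and 421 CPM in DKO 1 to 5, against 255, 283, 276, 274 and 267 CPM in WT 1 to 5. The groups did not overlap, and DKO 2 and DKO 3 were nearest to WT. The rise was 1.43-fold (log2 fold change 0.52, SE 0.10, adjusted p = 0.0113). Psat1, the phosphoserine aminotransferase (chromosome 19, 15904678 to 15947337), was at 97.1, 60.4, 70.7, 62.4 and 57.5 CPM in DKO 1 to 5, against 42.7, 38.8, 40.0, 26.3 and 28.1 CPM in WT 1 to 5. Again no WT library reached a DKO library, and DKO 1 was highest (log2 fold change 0.99, SE 0.18, adjusted p = 0.00961). Psph, the phosphatase of the last step, did not pass and had a negative value (log2 fold change -0.24, SE 0.14, adjusted p = 0.329), with 10.7 to 13.4 CPM in DKO and 11.2 to 16.5 CPM in WT libraries. It is overlapped by Cct6a on the other strand, at 215 CPM in DKO and 226 CPM in WT microglia. An unstranded kit does not separate strands where exons overlap, and whether exons of these genes overlap was not looked at.

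Mthfd2, a mitochondrial enzyme of the folate cycle (chromosome 6, 83305691 to 83325908), was at 101, 42.1, 50, 54.1 and 62.5 CPM in DKO 1 to 5, against 32.1, 35.5, 30.8, 32.8 and 23.8 CPM in WT 1 to 5. The groups did not overlap, DKO 1 being highest by far and WT 5 lowest. Its log2 fold change was 1.00 (SE 0.22, adjusted p = 0.0221), and it did not pass without WT 5 (0.92, adjusted p = 0.0533). Shmt2, which moves a carbon unit from serine to folate in mitochondria, had 35.8 to 52.1 CPM in DKO and 33.4 to 37.4 CPM in WT libraries and did not pass, at a log2 fold change of 0.34 (SE 0.12, adjusted p = 0.107). The proline enzymes Aldh18a1 and Pycr1, which act at the start and the end of proline synthesis, had values of opposite sign. Aldh18a1 had 38.8 to 56.8 CPM in DKO and 31.4 to 40.3 CPM in WT libraries (log2 fold change 0.43, SE 0.13, adjusted p = 0.0779), and DESeq2 called it (adjusted p = 0.0496). Pycr1 was low, at 1.25 to 3.32 CPM in DKO and 1.74 to 3.44 CPM in WT libraries (log2 fold change -0.34, SE 0.29, adjusted p = 0.514). Cth, which makes cysteine from cystathionine, had at most 0.0446 CPM in a DKO library and 0.198 CPM in a WT library and was not tested.

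**Figure D2:**
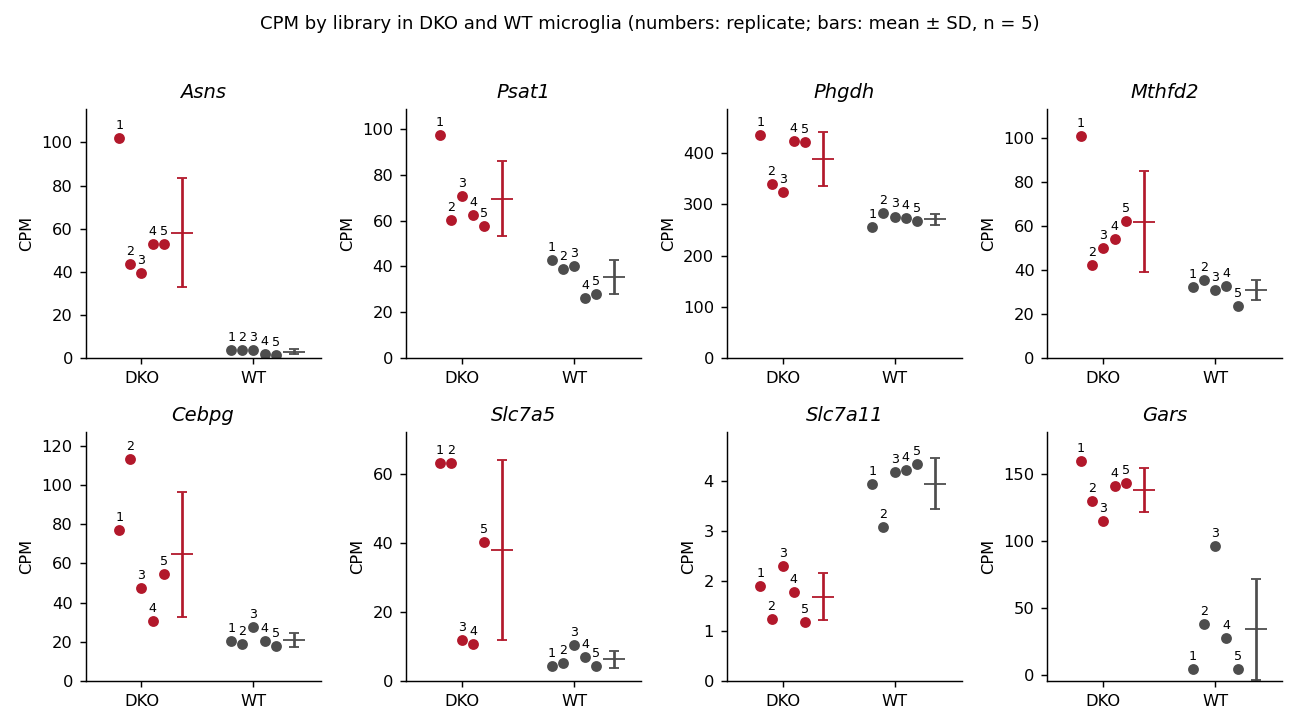
CPM of the 7 called members and of Gars, 1 point per library numbered by replicate, with bars for the mean ± SD of 5 libraries per genotype. In all 8 panels the genotypes do not overlap, with WT above DKO for Slc7a11 alone, and for Gars WT 3 (96.2 CPM) lies far above the other WT libraries.

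The transporters moved in both directions. Slc7a5, the light chain of LAT1, which imports large neutral amino acids such as leucine (chromosome 8, 121881150 to 121907694), was at 63.2, 63.2, 11.8, 10.8 and 40.1 CPM in DKO 1 to 5, against 4.25, 5.31, 10.4, 6.79 and 4.33 CPM in WT 1 to 5. DKO 3 and DKO 4 lay just above WT 3, the highest WT library, so that the DKO libraries spread more widely than the WT libraries. The log2 fold change was 2.6 (SE 0.53, adjusted p = 0.0157). Gm20388, which overlaps Slc7a5 on the other strand, was at 3.49 CPM in DKO and 3.56 CPM in WT microglia. Whether exons of these genes overlap was not looked at. Slc7a11, the light chain of the cystine and glutamate exchanger xCT (chromosome 3, 49892526 to 50443614), was at 1.90, 1.24, 2.30, 1.78 and 1.18 CPM in DKO 1 to 5, against 3.93, 3.08, 4.17, 4.21 and 4.33 CPM in WT 1 to 5. It fell, with no overlap, at 28 to 54 counts in DKO and 73 to 115 counts in WT libraries (log2 fold change -1.22, SE 0.22, adjusted p = 0.00747). Slc3a2, the heavy chain that both light chains pair with, did not pass, at 567 to 783 CPM in DKO and 564 to 607 CPM in WT libraries (log2 fold change 0.17, SE 0.10, adjusted p = 0.352). Per length Slc3a2 was first among the members in both genotypes, at 552 ± 48.5 TPM in DKO and 657 ± 67.9 TPM in WT microglia, and Slc7a11 was last, at 0.234 ± 0.0794 TPM in DKO and 0.665 ± 0.18 TPM in WT microglia (SD, n = 5 each). Vldlr, a lipoprotein receptor, had at most 0.172 CPM in a DKO library and 0.144 CPM in a WT library and was not tested.

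Among the regulators Cebpg rose and Atf4 did not pass. Atf4, whose protein is controlled mainly through translation, was at 58.7, 50.7, 35.5, 47.0 and 46.2 CPM in DKO 1 to 5, against 38.3, 47.6, 39.5, 59.5 and 41.7 CPM in WT 1 to 5. The highest value of all was that of a WT library and the lowest that of a DKO library (log2 fold change 0.07, 95% interval -0.27 to 0.41, adjusted p = 0.814). Cebpg, a C/EBP protein that forms heterodimers with ATF4 (chromosome 7, 35046422 to 35056573), was at 76.8, 113, 47.6, 30.6 and 54.6 CPM in DKO 1 to 5, against 20.4, 18.9, 27.3, 20.2 and 17.7 CPM in WT 1 to 5. The groups did not overlap, with DKO 4 and WT 3 nearest to each other (log2 fold change 1.63, SE 0.30, adjusted p = 0.00933). The transcript length behind the counts of Cebpg was 2777 ± 718 bases in DKO and 3546 ± 360 bases in WT microglia (SD, n = 5 each), a difference that was not tested.

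Of the other regulators none passed. Trib3, a pseudokinase that is induced by ATF4 and CHOP, was at 4.74, 1.03, 1.97, 1.02 and 2.30 CPM in DKO 1 to 5, against 0.432, 0.297, 0.83, 1.40 and 1.2 CPM in WT 1 to 5, and the groups overlapped (log2 fold change 1.40, SE 0.51, adjusted p = 0.13). Nupr1, a stress-induced nuclear protein, had 12.6 to 34.8 CPM in DKO and 9.44 to 17.2 CPM in WT libraries (log2 fold change 0.49, adjusted p = 0.298). Ddit3, which encodes CHOP, had 8.42 to 15 CPM in DKO and 7.37 to 14.5 CPM in WT libraries (log2 fold change -0.07, 95% interval -0.55 to 0.41, adjusted p = 0.874). It is overlapped on the other strand by Mars, which was at 200 CPM in DKO and 168 CPM in WT microglia. Sesn2, a leucine sensor upstream of mTORC1, was at 30.0, 17.1, 19.0, 16.5 and 19.5 CPM in DKO 1 to 5, against 23.7, 26.7, 26.4, 24.1 and 25.2 CPM in WT 1 to 5. DKO 1 lay above all WT libraries and the other DKO libraries below them (log2 fold change -0.31, SE 0.16, adjusted p = 0.273), and without DKO 1 it was called lower (-0.48, adjusted p = 0.0356). Atf5, Cebpb, Chac1 and the second, short entry of Ddit3 were not tested, with at most 0.897 CPM in a DKO library and 0.743 CPM in a WT library.

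The 12 cytosolic synthetases, which charge tRNAs with their amino acids, all had positive log2 fold changes, with a median of 0.27, and none passed the test with edgeR or DESeq2. At an unadjusted p under 0.05, 3 of them were higher, Gars, Lars and Tars, beside 13.3% of all genes. Without Gars the other 11 lay between 0.05 and 0.61 with a median of 0.26. On TPM the sign turned for several, and Nars (-0.33 to -0.32) and Wars (-0.31) were called lower there. Gars, the glycine enzyme (chromosome 6, 55038007 to 55079500), was at 160, 130, 115, 141 and 143 CPM in DKO 1 to 5, against 4.5, 38.2, 96.2, 27.8 and 4.48 CPM in WT 1 to 5. No WT library reached a DKO library, but the WT libraries spread from 119 to 2434 counts, with WT 1 and WT 5 lowest and WT 3 highest. Its log2 fold change was 2.01 (SE 0.70, adjusted p = 0.111). Without WT 3, the WT library whose Gm23935 share was near that of DKO libraries, it was 2.88 (adjusted p = 0.00962), and limma voom also called it (2.94, adjusted p = 0.0207). Without WT 1 and WT 5 it was 1.35 (adjusted p = 0.0652). Whether RNA quality or the Gm23935 share plays a part in the WT values of Gars was not tested.

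Of the remaining synthetases, Eprs, which charges both glutamate and proline tRNAs, had the highest log2 fold change, with 103, 84.6, 49.9, 87.3 and 78.4 CPM in DKO 1 to 5, against 34, 67.5, 75.9, 59.9 and 27.2 CPM in WT 1 to 5. WT 1 and WT 5 were again the lowest, and the groups overlapped through DKO 3 (log2 fold change 0.61, SE 0.28, adjusted p = 0.22). Lars, the leucine enzyme, had 49.1 to 57.3 CPM in DKO and 36.6 to 50.6 CPM in WT libraries (log2 fold change 0.26, SE 0.10, adjusted p = 0.156). Tars, the threonine enzyme, had 68.7 to 91.2 CPM in DKO and 50.6 to 75.3 CPM in WT libraries (log2 fold change 0.28, adjusted p = 0.208). The values for Yars, Iars, Aars and Sars, which serve tyrosine, isoleucine, alanine and serine, were 0.35, 0.34, 0.27 and 0.21 on the log2 scale. Those for Cars, Wars, Hars and Nars, which serve cysteine, tryptophan, histidine and asparagine, were 0.14, 0.06, 0.06 and 0.05. The adjusted p of these 8 ran from 0.249 to 0.789. Nars, which attaches the product of Asns to its tRNA, had 280 to 362 CPM in DKO and 302 to 343 CPM in WT libraries, with a 95% interval from -0.15 to 0.24. Hars overlaps Hars2 on the other strand, which was at 38.8 CPM in DKO and 50 CPM in WT microglia.

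**Figure D3:**
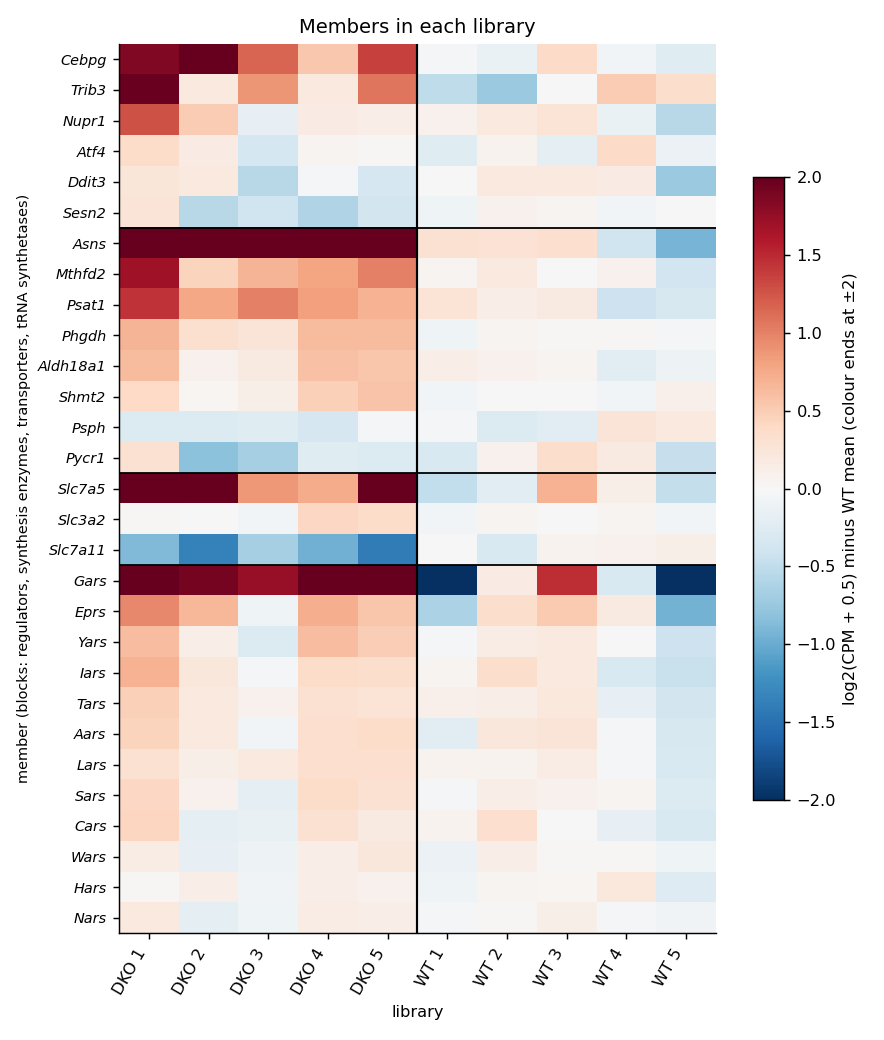
Log2(CPM + 0.5) of each tested member in each library relative to the WT mean, with DKO 1 to 5 left of WT 1 to 5, members in blocks by role, and red for higher and blue for lower values. Asns is dark red in all 5 DKO libraries, DKO 1 is the reddest column over the members and WT 5 the bluest, and Gars is dark blue in WT 1 and WT 5 and red in WT 3.

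The libraries of a genotype differed over the members as a whole. DKO 1 was the highest of the 5 DKO libraries in 20 of 29 members and the lowest in 0, while over all genes it was the highest in 19.4%. DKO 3, the DKO library with more mitochondrial reads, was the lowest in 14 of 29, beside 26.5% of all genes. WT 3 was the highest of the WT libraries in 13 members, beside 20.9% of all genes, and WT 5 the lowest in 18, beside 23.7%. The median log2 difference of the members from the WT mean was 0.45, 0.16, -0.05, 0.34 and 0.35 in DKO 1 to 5, against -0.04, 0.09, 0.11, 0.00 and -0.30 in WT 1 to 5. In the 11 synthetases other than Gars the same median was 0.43, 0.13, -0.08, 0.33 and 0.30 in DKO 1 to 5, against -0.03, 0.14, 0.15, -0.03 and -0.31 in WT 1 to 5, so that DKO 2 and DKO 3 lay within the WT range. The 12 genes listed for the stress of dissociation summed to 1460 to 2120 CPM in DKO and 894 to 1810 CPM in WT libraries and were lowest in DKO 3 among the DKO libraries and in WT 5 and WT 1 among the WT libraries. Their part in the spread of the members was not tested.

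Asns was then set beside each of the 28 other tested members within the same library, to compare its change with theirs. In log2(CPM + 0.5), Asns minus Atf4 was 0.22 ± 0.36 in DKO and -3.82 ± 0.69 in WT microglia (SD, n = 5 each). All 28 differences share Asns and so carry its change, and they are given as a description. DKO minus WT, the difference was higher by 1.27 for Gars, the lowest of the 28, by 1.90 for Slc7a5, and by 5.16 for Slc7a11, the highest. For the other members that rose, it was higher by 3.60 for Phgdh, 3.18 for Mthfd2, 3.14 for Psat1 and 2.63 for Cebpg. Asns minus Mthfd2 was at -0.11 ± 0.17 in DKO and -3.29 ± 0.42 in WT microglia (SD, n = 5 each). Asns minus Psat1 was at -0.32 ± 0.35 in DKO and -3.45 ± 0.32 in WT microglia (SD, n = 5 each).

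Further genes of the pathway were listed by function, 86 of which were tested, and 8 of these passed (9.3%, beside 6.19% of all genes), 6 higher and 2 lower. This count was 5 when DKO 1, DKO 2 or DKO 5 was left out, and 16 when WT 3 was left out. It was 18 with DESeq2, which called 11.7% of all genes. It was also 18 with a term that sets libraries 1 to 3 of each genotype apart from libraries 4 and 5. Calls over all genes moved between such fits as well, so these counts do not describe the lists alone. Libraries 1 to 3 are listed ahead of the rest, and no label names a batch. Of 20 other genes known as ATF4 targets, 4 rose and 1 fell (25%, beside 6.19% of all genes), with a median log2 fold change of 0.33. This list, too, was chosen with earlier results of these data known. Slc7a1, a carrier of arginine and lysine, was at 43.1, 29.3, 29.2, 24.2 and 27.0 CPM in DKO 1 to 5, against 15.2, 12.2, 11.7, 12.2 and 9.91 CPM in WT 1 to 5. It was higher in every DKO library and highest in DKO 1 (log2 fold change 1.32, SE 0.17, adjusted p = 0.000941). Eif4ebp1, which restrains cap-dependent translation, was at 80.3, 58.5, 52.0, 51.1 and 55.3 CPM in DKO 1 to 5, against 31.4, 32.3, 31.1, 28.0 and 21.7 CPM in WT 1 to 5 (log2 fold change 1.04, SE 0.15, adjusted p = 0.00225). Slc1a5, a carrier of glutamine and other neutral amino acids, was at 3.00 to 7.48 CPM in DKO and 0.18 to 2.16 CPM in WT libraries (log2 fold change 2.19, SE 0.54, adjusted p = 0.0368), and lost its call without any 1 of DKO 1, 2, 4 and 5 and WT 4 and 5 (adjusted p up to 0.0876) and with effective length as an offset (1.58, adjusted p = 0.201). Jdp2, a leucine zipper protein, was at 0.897 to 2.31 CPM in DKO and 0.564 to 0.865 CPM in WT libraries (log2 fold change 1.10, SE 0.28, adjusted p = 0.0437), and lost its call without any library but DKO 4. With effective length as an offset Jdp2 was at 0.40 (adjusted p = 0.59), and on TPM at 0.02 to 0.08. Bcat1, which transfers amino groups from branched-chain amino acids, fell, to 0.831 ± 0.197 CPM in DKO against 2.06 ± 0.393 CPM in WT microglia (SD, n = 5 each; log2 fold change of -1.31 at an adjusted p of 0.0106). Xpot, the exporter of tRNA from the nucleus, had 82.0 to 99.5 CPM in DKO and 32.7 to 92.3 CPM in WT libraries, the highest being WT 3, and did not pass (log2 fold change 0.89, adjusted p = 0.0568).

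None of the 8 other cytosolic synthetases passed (median log2 fold change -0.04, 1 at an unadjusted p under 0.05, Vars at 0.65), none of the 3 scaffold proteins of the multisynthetase complex (median 0.01, 0 at an unadjusted p under 0.05) and none of the 17 mitochondrial synthetases (median -0.16, 5 at an unadjusted p under 0.05, 3 higher and 2 lower, beside 23.3% of all genes in either direction). DESeq2 called Vars and Iars2 of these genes, and limma voom called Iars2 and Cars2. Of 14 genes for eIF2, its exchange factor, its kinases and their partners, 1 passed (7.14%, near the 6.19% of all genes). Impact, an inhibitor of GCN2, fell to 25.9 ± 3.55 CPM in DKO against 39.8 ± 6.63 CPM in WT microglia (SD, n = 5 each; log2 fold change -0.62, SE 0.14, adjusted p = 0.0223), and it lost its call without DKO 1, DKO 2, DKO 5 or WT 5 (adjusted p up to 0.0616). Eif2ak4, the gene of GCN2, and Eif2ak3, that of PERK, were at -0.13 and -0.14 on the log2 scale, neither past the threshold (adjusted p = 0.642 and 0.712). Of 15 genes of the other arms of the unfolded protein response, 1 passed (6.67%, near the 6.19% of all genes), with a median of -0.02. Edem1, which directs misfolded glycoproteins to degradation, was at 427, 571, 230.0, 180.0 and 453 CPM in DKO 1 to 5, against 79.3, 71.9, 92.4, 66.2 and 83.6 CPM in WT 1 to 5 (log2 fold change 2.24, SE 0.28, adjusted p = 0.000849). Where Edem1 and Bcat1 lie relative to Bhlhe40 and Bhlhe41 was not looked at. An effect of the knockout alleles on nearby genes was not tested. The chaperone Hspa5, the classic readout of that response, did not pass, at 1360 ± 67.3 CPM in DKO and 1600 ± 150 CPM in WT microglia (SD, n = 5 each; log2 fold change of -0.24 at an adjusted p of 0.11). Of 9 tested genes of asparagine, aspartate and glutamine metabolism, 1 passed (11.1%, beside 6.19% of all genes). Got1, the cytosolic aminotransferase that interconverts aspartate and glutamate with their keto acids, rose to 63.8 ± 3.50 CPM in DKO against 40.3 ± 2.84 CPM in WT microglia (SD, n = 5 each; log2 fold change 0.66, SE 0.08, adjusted p = 0.000863), and did not pass on TPM (0.18, adjusted p = 0.336 in limma with 1 added). The other 8 did not pass with edgeR, among them Got2, the mitochondrial form, at 0.39 (adjusted p = 0.115), and Glul, glutamine synthetase, at -0.37 (adjusted p = 0.155). Beyond the genes called by edgeR in the last 3 lists, DESeq2 called Asl, Eif2b5, Ern1 and Manf, and limma voom called Eif2b5 and Manf.

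**Figure D4:**
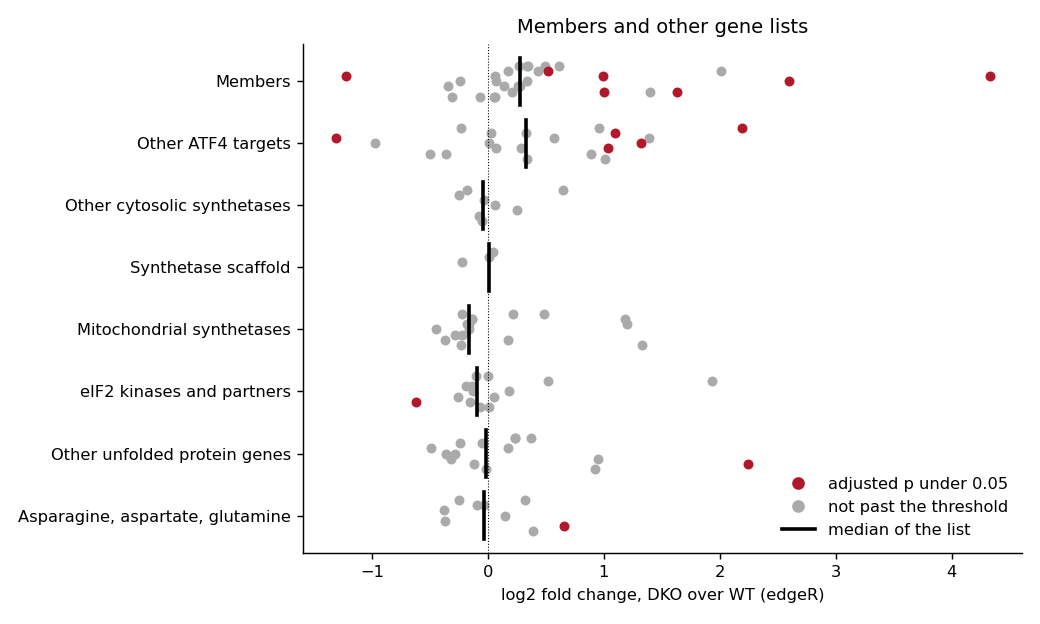
Log2 fold change of DKO over WT for the tested members and for the genes of 7 further lists, 1 point per gene, red for an adjusted p under 0.05 and a black bar for the median of each list. The medians are 0.28 for the members, 0.33 for the other ATF4 targets and between -0.16 and 0.01 for the other 6 lists.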

How the data were processed

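RNA of sorted microglia was sequenced in 10 libraries with an unstranded kit. The authors checked reads with FastQC 0.11.8, trimmed them with cutadapt 2.6 and aligned them with STAR 2.5.3a to mm10. The program that produced the values per gene and its annotation were not given in the sources used here. Per gene, the deposited tables give an estimated count that is not normalized, a TPM scaled to a fixed sum per library, and a transcript length and an effective length in bases, which the authors' tool weighted by isoform abundance. RNA integrity was not assessed.

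Estimated counts were rounded and filtered with filterByExpr (minimum count 10). TMM factors and the quasi-likelihood test came from edgeR 4.0.16 in R 4.3.3, with genotype as the only term. Alternatives used DESeq2 1.42.0, limma 3.58.1, other scaling factors, filters and terms, and each library left out. Single values, 5 libraries against 5, were compared by exact permutation (two-sided). A standard error is the log2 fold change divided by the square root of F. Tests were checked on simulated data with 200 changed genes. There 12% of 1.5-fold, 46% of 2-fold and 92% of 4-fold changes were recovered, and 1.6% of calls were false. A member that did not pass is thus not shown to be unchanged. Gene positions are those of GENCODE M21, which matched 99.95% of the gene entries, and promoters are those of RefSeq on GRCm38.p6. Precision rests on 5 libraries per genotype at the depths given.

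The members and the gene lists were chosen with earlier results of these data known. Of the microglia markers, 1 is not reported here. The text names all members, every gene of the other lists that passed, and otherwise at most 3 genes of a list by average expression. Xpot, Iars2, Cars2, Asl, Eif2b5, Ern1, Manf, Eif2ak3 and Eif2ak4 fall outside that rule and were named after their values were seen.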

Additional observations from a re-analysis of the deposited data

Results flagged for a closer look

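The 29 tested members give 58 groups of 5 libraries, and in 4 of them 1 library lay far from the other 4, its gap to the nearest library being above 0.71 of the whole range of the group. Chance alone gives this in about 1 in 20 groups. Asns was at 102 CPM in DKO 1, with the next DKO library at 53.0 CPM and the lowest at 39.6 CPM. Sesn2 was at 30.0 CPM in DKO 1, with the other DKO libraries between 16.5 and 19.5 CPM. Cebpg was at 27.3 CPM in WT 3, with the other WT libraries between 17.7 and 20.4 CPM. Ddit3 was at 7.37 CPM in WT 5, with the other WT libraries between 12.6 and 14.5 CPM.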

How the results depend on the processing

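Of the 7 called members, Asns, Psat1 and Slc7a11 passed in all 24 alternatives, Asns with log2 fold changes of 3.26 to 4.45 (4.03 to 4.45 without 1 library). The count of called members was 6 to 8 without 1 library and 3 without WT 1 and WT 5 (lost: Cebpg 1.54, Phgdh 0.48, Mthfd2 0.91 and Slc7a5 2.33, adjusted p 0.0514 to 0.0943). On TPM, with 1 or 0.1 added, it was 10 (beside 34.6% of all genes), 5 higher and 5 lower in place of 6 and 1, without Phgdh and Mthfd2, with Gars called, Psph (-0.53 and -0.57) and Sesn2 (-0.63 and -0.69) called lower, and with Nars at -0.32 and -0.33 and Wars at -0.31 and -0.31 now called lower. The median of the members was -0.09 there and 0.20 to 0.34 without 1 library. The other lists, with 86 genes tested, held 18 called genes with DESeq2 (beside 11.7% of all genes) and 13 with limma voom (beside 8.32%). On TPM with 1 and 0.1 added they held 47 and 45 (beside 34.6%). They held 5 with effective length as an offset, 18 with a term for replicate numbers 1 to 3 against 4 to 5, and 5 to 16 without 1 library. Near Asns, 1 gene was called with DESeq2 (beside 11.7% of all genes), 3 and 2 on TPM (beside 34.6%), and 0 without any 1 library. The Asns length difference was 68 to 289 bases. Over all genes 402 (without DKO 1) to 4820 (on TPM) were called. The counts of called members and of called genes in the other lists thus moved along with the calls over all genes. They cannot be read as changes of these genes alone. The cause of these moves was not tested.

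Libraries of equal number did not deviate together (correlations of -0.12, 0.10, -0.29, 0.23 and 0.12), and 1 of 5 DKO libraries correlated best with its own number. With a replicate block the called members numbered 5, without Mthfd2 and Slc7a5, the other lists 4, and the Asns log2 fold change was 4.34. The calls over all genes in that fit are not given beside these counts. Of the members, 6 had too few reads to be tested, and Slc7a11, Trib3 and Pycr1 rest on few counts. Whether more depth would change this was not tested.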
